A study of Canis lupus familiaris with 33 samples.

Results

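Cytosolic ribosomal protein genes encode the proteins of the ribosome that translates messenger RNA in the cytoplasm. Genes named RPL encode proteins of the large subunit, which joins amino acids, and genes named RPS encode proteins of the small subunit, which reads the messenger RNA. Cells make these proteins in matched amounts, and their genes are among the most highly transcribed in growing tissue, so the gene family is often read as a measure of the capacity for protein synthesis. The members were chosen by name alone: a gene symbol that starts with RPL or RPS and a digit, or is RPSA or RPLP0 to RPLP2, without the S6 kinases. This rule found 56 of the 25096 rows of the TMM-normalized table, with 53 symbols, since RPL11, RPL23 and RPL26 each stand on 2 rows. They comprised 29 rows of the large subunit, 24 of the small subunit, 2 of paralogs (RPL10L and RPS27L) and 1 of RPS19BP1, which encodes a protein that binds RPS19 and is not part of the ribosome. All 56 rows were tested. Other family members, among them RPLP0, RPLP1, RPLP2, RPL5, RPL22 and RPL30, were not analysed here.

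The samples were 29 invasive urothelial carcinomas (iUC) of the canine bladder, each a high grade biopsy from a different untreated dog, and 4 samples of normal bladder mucosa dissected from dogs without bladder disease. All were bulk tissue run in 1 batch, in which fewer cells of a type and less RNA per cell cannot be told apart. Per the study, nearly all cells of each tumor were epithelial, and the normals were the urothelial layer stripped from the bladder wall. Values are on the log2 scale and relative to the gene's own median in the 33 samples, so 0 is the middle sample of a gene, and levels cannot be compared between genes. Samples are called by the letters or numbers of their titles. The normals stood apart from the tumors in 2 ways that touch every comparison: between 755 and 1019 genes lay at their lowest value in a normal, against 3699 to 8175 in a tumor, and all 133 olfactory receptor rows lay above their lowest value in each normal, against 4.51% to 91.7% of them in a tumor. Markers of muscle and stroma were also higher in the normals. All 6 smooth muscle markers were lower in tumors, where 45.8% of all genes were called lower, with a median log2 fold change of -6.05, and their mean ran from 4.54 to 6.58 in normals and from -1.29 to 3.52 in tumors. All 6 fibroblast markers were lower as well, with a median of -2.84 and means from 2.38 to 3.05 in normals and -2.41 to 2.27 in tumors. Of 9 urothelial markers 5 were higher in tumors, with a limma adjusted p up to 0.05 and at least a 2-fold change (UPK3A, UPK3B, KRT19, CDH1 and EPCAM, by 1.09 to 2.18, where 10.7% of all genes were higher; UPK3B and KRT19 were under 2-fold in the DESeq-normalized table, at 0.86 and 0.79). KRT20 was lower (log2 fold change -3.75), and GATA3 (0.92), UPK1A (0.03) and UPK2 (0.04) were not called; the median of the list was 1.09. Tumors 5 and Po stood apart from the others: the sample most similar to each was a normal (r of 0.47 with normal A and 0.50 with normal D). Without these 2 tumors, an alternative added after the values were seen, 6 of the 56 rows were lower and 1 higher at both thresholds, as with all tumors, and 7 were lower and 11 in place of 9 higher at the adjusted p alone. The 2 added rows, RPL14 and RPL28, are of the large subunit. Among the gene lists below, at both thresholds, the higher genes were then 12 in place of 11 for ribosome biogenesis, and 7 in place of 6 for both growth regulators and mitochondrial ribosomal proteins. The median log2 fold change of the 56 rows was 0.28 and their median pairwise r over the tumors was 0.63. The part of these differences in the results on ribosomal protein genes was not tested.

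The rows carrying these symbols are not equally certain. As a check added after the values were seen, the 10 nearest identified rows around each member were compared with the RefSeq gene order. Of the 56 rows, 41 lay among the neighbours that RefSeq gives for the gene (at least 9 of 10 shared), 14 lay elsewhere (0 of 10 shared), and RPL39 had no RefSeq gene of that symbol. The rows elsewhere included RPL36, RPL37, RPL37A, RPL38, RPS3A, RPS19, RPS20, RPS25, RPS27L and the second rows of RPL11, RPL23 and RPL26. Ribosomal protein genes have many processed copies across mammalian genomes, and reads of a gene and of a near-identical copy can be divided between rows, so the values of these rows are uncertain. The 41 rows with their own neighbours comprised 20 of the large subunit, 19 of the small subunit, RPL10L and RPS19BP1. The 39 subunit rows among them are used below for the level of a sample.

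As a group, ribosomal protein genes differed little between tumors and normals. The median log2 fold change over the 56 rows was 0.26 in the TMM-normalized table, beside -0.84 over all genes tested and -0.01 over the expressed genes, meaning those with a median above their lowest value. In the DESeq-normalized table the median was -0.04, and 27 of the 56 rows had a positive fold change in place of 44; that table shifted the expressed genes to a median of -0.30. With the samples of the DESeq-normalized table centred on the expressed genes, the median of the 56 rows was 0.21. The sign of a small change in this family therefore depended on the scaling.

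Of the 56 rows, 6 were lower and 1 was higher in tumors with a limma adjusted p up to 0.05 and a change of 2-fold or more, where 45.8% of all 24471 genes tested were lower and 10.7% were higher. With the adjusted p alone, 7 were lower and 9 were higher, against 48.1% and 22.9% of all genes. Among the 18418 expressed genes, the class of most members, 30.4% were lower and 14.2% higher at both thresholds, and 32.6% lower and 30.4% higher at the adjusted p alone. The 7 lower rows were all rows elsewhere or RPL39, and none of the 41 rows with their own neighbours was lower under either rule. Of those 41 rows, 34 did not pass the test in either direction. The plot of log2 fold changes by member shows the long lower tail and the flat remainder.

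**Figure D1:**
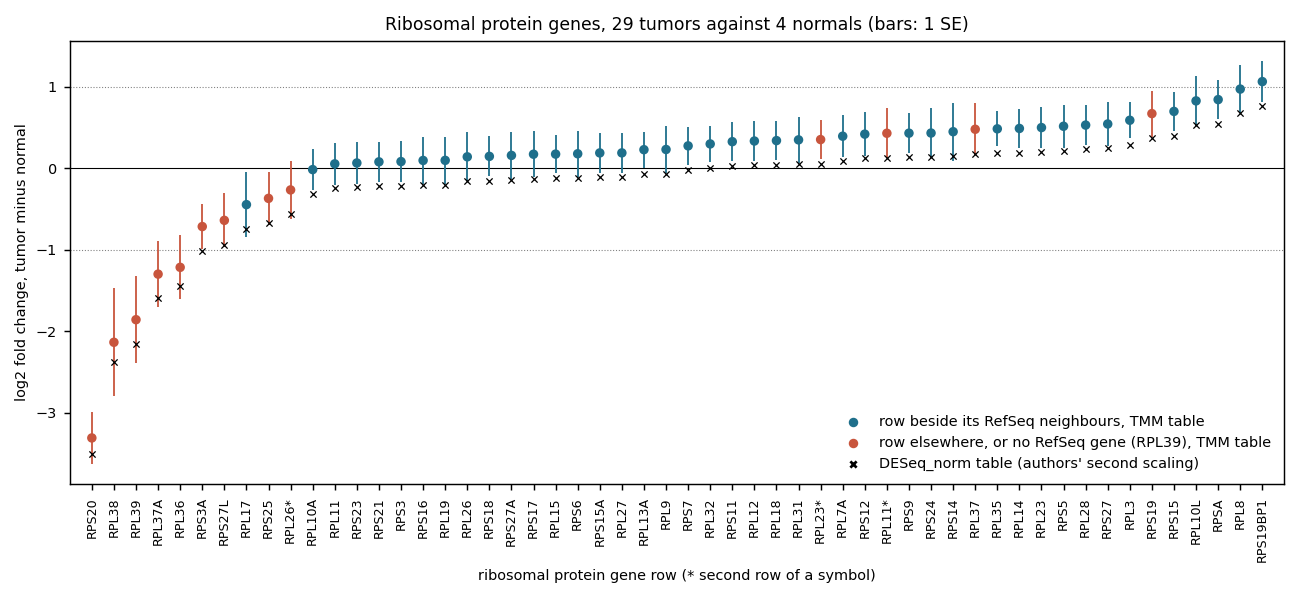
Log2 fold change, tumor minus normal, of 54 of the ribosomal protein gene rows in order of size; points and bars give the TMM-normalized value and 1 SE, colors mark whether a row lies among the RefSeq neighbours of its symbol, crosses give the DESeq-normalized value, and dotted lines mark a 2-fold change. The 5 rows below the lower dotted line run from RPS20 at -3.31 to RPL36 at -1.21, and the rows with their own neighbours run from RPL17 at -0.44 to RPS19BP1 at 1.07.

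Among the subunit proteins, RPSA was the one whose tumors all lay above the normals. RPSA encodes a small subunit protein also known as the laminin receptor. Its values were -0.77, -0.63, -0.61 and -0.99 in normals A to D, and ran from -0.53 through a median of 0.03 to 1.31 in tumors. The groups did not overlap, and the log2 fold change was 0.84 ± 0.23 (SE; limma adjusted p = 0.00189). Of the 56 rows, only RPSA and RPS19BP1 had every tumor above every normal, beside 7.63% of all genes. RPS15, a protein of the small subunit head, was at -0.82, -0.60, -0.60 and -0.63 in normals A to D and between -0.74 and 1.12 in tumors. The lowest tumors reached into the range of the normals, and 27 of 29 tumors lay above it (log2 fold change 0.70 ± 0.24, adjusted p = 0.0092). RPS6, the small subunit protein phosphorylated by the S6 kinases, differed by 0.18 ± 0.28 (adjusted p = 0.575), with 14 tumors above and 7 below every normal. Neither a rise nor a fall of RPS6 could be told from the spread between samples.

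In the large subunit, RPL8, a protein close to the catalytic center, was at -0.93, -0.79, -0.62 and -0.88 in normals A to D and between -0.81 and 1.35 in tumors, with a tumor median of 0.20. It was higher by 0.97 ± 0.29 (adjusted p = 0.00379), and 28 of 29 tumors lay above every normal. This was just short of 2-fold. All 10 rows next to RPL8 were also higher on average in tumors, with a median log2 fold change of 1.04 and a range from 0.28 to 2.50, and 6 of them passed both thresholds, where 10.7% of all genes did. In the DESeq-normalized table their median was 0.75, from -0.01 to 2.20, and 3 passed. The copy number of this region was not analysed here, and its part in the values was not tested. RPL3, which also lines the catalytic center, was higher by 0.59 ± 0.22 (adjusted p = 0.0182), with normals between -0.51 and -0.35 and 27 tumors above them. RPL35, near the exit of the peptide tunnel, was higher by 0.49 ± 0.21 (adjusted p = 0.0431). RPL11, which can also bind MDM2 when ribosome assembly fails, differed by 0.06 ± 0.26 on the row with its own neighbours (adjusted p = 0.852) and by 0.43 ± 0.31 on its other row (adjusted p = 0.207).

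The scaling decided several of these calls. In the DESeq-normalized table, RPSA (0.55, adjusted p = 0.042), RPL8 (0.68, adjusted p = 0.0415) and RPS19BP1 (0.77, adjusted p = 0.00827) passed at the adjusted p alone, where 15.0% of all genes were higher. RPS15, RPL3 and RPL35 did not, at 0.40, 0.29 and 0.19 with adjusted p-values of 0.132, 0.246 and 0.445. RPS19BP1, the member outside the ribosome, was at -0.88, -0.81, -0.65 and -1.28 in normals A to D and between -0.54 and 1.30 in tumors. It was the one row called higher at 2-fold in the TMM-normalized table, by 1.07 ± 0.25 (adjusted p = 0.000392), and at 0.94 it was under 2-fold without normal D. RPL10L, a paralog known for its use in the testis, was higher by 0.83 ± 0.31 (adjusted p = 0.0163) and did not pass in the DESeq-normalized table (0.53, adjusted p = 0.126), and its reads may be shared with RPL10.

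The falls stood on rows of uncertain origin. RPS20, a small subunit protein, lay 3.30, 3.14, 3.74 and 4.03 units above its lowest value in normals A to D. In the tumors 23 of 29 were at the lowest value and the highest was 2.62 units above it (fitted log2 fold change -3.31 ± 0.32, adjusted p = 4.38e-11). Every tumor lay below every normal, which held for 2 of the 56 rows beside 28.5% of all genes. Because most tumors were at the lowest value, the fold change depends on where that value was set.

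RPL38 and RPL36, of the large subunit, were also at the lowest value in 15 and 17 tumors. In normals A to D RPL38 lay 4.63, 3.46, 3.13 and 1.32 units above its lowest value, and the highest tumor, at 4.11, was above 3 of the 4 normals. The groups overlapped, the log2 fold change was -2.13 ± 0.66 (adjusted p = 0.00491), and without normal A RPL38 no longer passed (-1.63). RPL36 lay 0.79, 1.60, 0.41 and 3.54 units above its lowest value in the normals and at most 2.18 above it in a tumor. Its fall of -1.21 ± 0.39 (adjusted p = 0.00676) rested on normal D, without which it was -0.56 and not called. The plot of these rows above their lowest value shows the points of both groups.

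**Figure D2:**
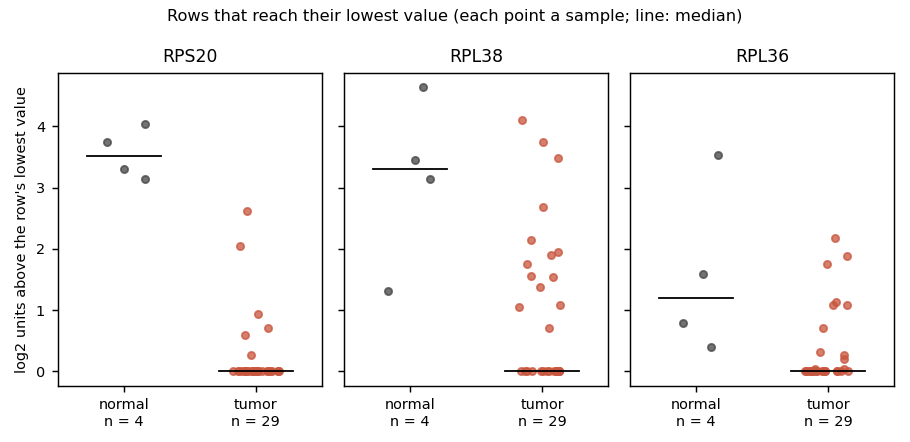
Height above the row's lowest value, in log2 units, of RPS20, RPL38 and RPL36 in 4 normals and 29 tumors; each point is a sample and lines are medians. Most tumors sit at 0 in every panel, the tumors of RPS20 lie below all normals, and the groups overlap for RPL38 and RPL36.

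RPL39, RPL37A and RPS3A fell without reaching a lowest value. RPL39, a small protein of the peptide tunnel, was at 1.76, 1.41, 1.20 and 1.72 in normals A to D and between -2.52 and 1.22 in tumors, and 28 of 29 tumors lay below every normal (-1.86 ± 0.54, adjusted p = 0.00271). RPL37A was at 1.64, 0.87, 0.57 and 1.25 in the normals and between -2.14 and 0.98 in tumors (-1.30 ± 0.41, adjusted p = 0.0052). RPS3A fell by less than 2-fold (-0.71 ± 0.28, adjusted p = 0.023), and in the DESeq-normalized table it passed both thresholds (-1.01, adjusted p = 0.00175). Not every row elsewhere fell: RPS19, the small subunit protein mutated in Diamond-Blackfan anemia, was higher by 0.67 ± 0.28 (adjusted p = 0.0329), with normal A at 0.12 and the other normals between -0.97 and -0.63; in the DESeq-normalized table RPS19 did not pass (0.37, adjusted p = 0.243). RPS27L, a paralog of RPS27 known as a p53 target, differed by -0.64 ± 0.33 (adjusted p = 0.0836), and in the DESeq-normalized table it was lower at the adjusted p alone (-0.94, adjusted p = 0.012), where 52.5% of all genes were lower.

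The clearest pattern of the family lay among the tumors. For the 39 subunit rows with their own neighbours, the median of a tumor ran from -0.65 in tumor Po to 1.24 in tumor Ja, which is 0.635 to 2.36 times the middle sample, with an SD of 0.43 over the 29 tumors. The 4 normals ran from -0.36 to 0.00, an SD of 0.17, and lay inside the range of the tumors. Tumors Ja and 18 stood above the rest at 1.24 and 1.16, followed by tumor 1 at 0.70. In tumor Ja all 39 rows were above their gene median, and in tumors 18, 1 and Ab, the last with a median of 0.55, there were 38. In tumors Po and Sp and in normal A none of the 39 rows was above it. Large and small subunit rows rose and fell together: within a tumor the median of the 20 large subunit rows differed from that of the 19 small subunit rows by -0.21 to 0.16, and by -0.04 to 0.00 in the normals.

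**Figure D3:**
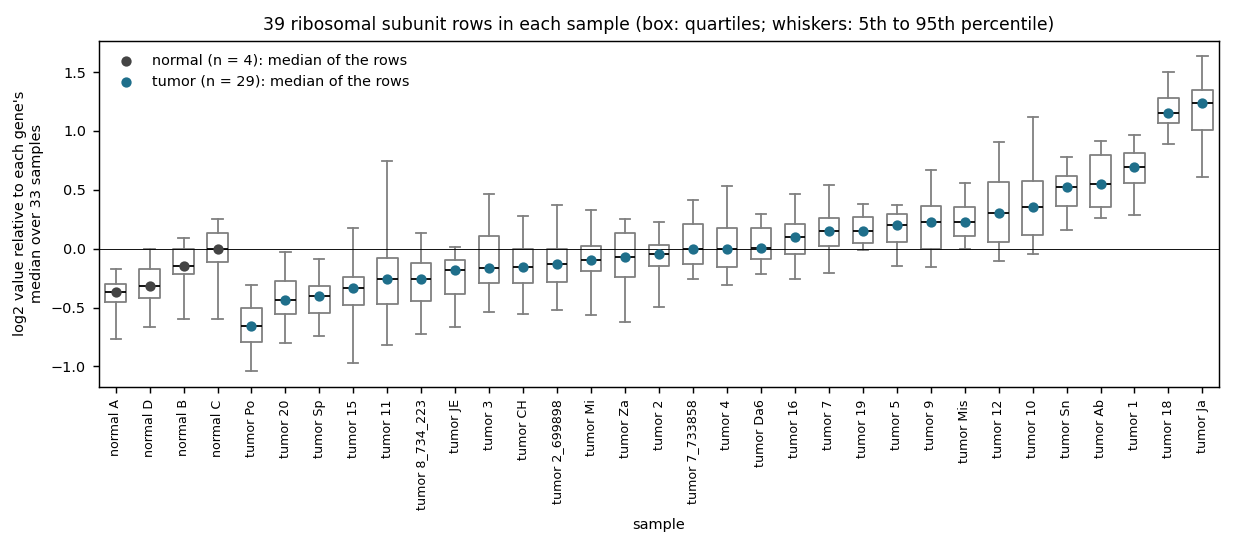
Values of the 39 ribosomal subunit rows with their own neighbours in each of the 33 samples, in log2 units relative to each gene's median; points are sample medians, boxes quartiles and whiskers the 5th to 95th percentiles, with normals at the left and both groups ordered by median. Tumors Ja and 18 sit at 1.24 and 1.16, tumor Po at -0.65, and the normals between -0.36 and 0.00.

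Over the 29 tumors, the 741 pairs of these 39 rows had a median Pearson's r of 0.74 (quartiles 0.65 and 0.81), and 88.5% of the pairs were over 0.5. The same median was 0.00 over all genes tested, 0.30 over 49 mitochondrial ribosomal protein genes, whose products form the separate ribosome of the mitochondrion, and 0.29 over 30 proteasome genes. It was 0.48 over 19 translation factors, with 45.6% of the pairs over 0.5. These sets were not restricted by place, as the 39 rows were after the values were seen. Without that restriction all 56 members had a median of 0.65. The points share their libraries, so anything that scales a library moves all of its genes. With each sample centred on the expressed genes the median r of the 39 rows was 0.76. Leaving out tumors Ja and 18, the 2 most extreme, lowered it to 0.60, and leaving out tumors 5 and Po gave 0.73. A single principal component carried 72.2% of the variance of the 39 rows over the tumors, all with the same sign, against 12.7% for all expressed genes. These values are descriptions and were not tested.

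Over all 56 rows the median pairwise r was 0.65, and 0.50 without tumors Ja and 18. The members closest to the rest, by the r of a row with the mean of the other 55, were RPS9 (0.95), RPL3 (0.93), the RPL26 row with its own neighbours (0.93), RPL7A (0.92) and RPL28 (0.91). The members farthest from the rest were RPL38 (-0.23), RPL36 (-0.12), RPS20 (-0.06), RPL39 (0.16) and RPS19 (0.19), of which RPL39 has no RefSeq gene to place it and the others are rows elsewhere. Of the 39 subunit rows with their own neighbours, 38 had an r of at least 0.5, with a median of 0.85, and of the 14 rows elsewhere 7 did, with a median of 0.55, 3 of the 14 being second rows of RPL11, RPL23 and RPL26. Among the rows with their own neighbours the lowest r was that of RPL17 (0.33), which also had the largest SD over the tumors of those subunit rows, 0.80, beside a median SD of 0.49.

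**Figure D4:**
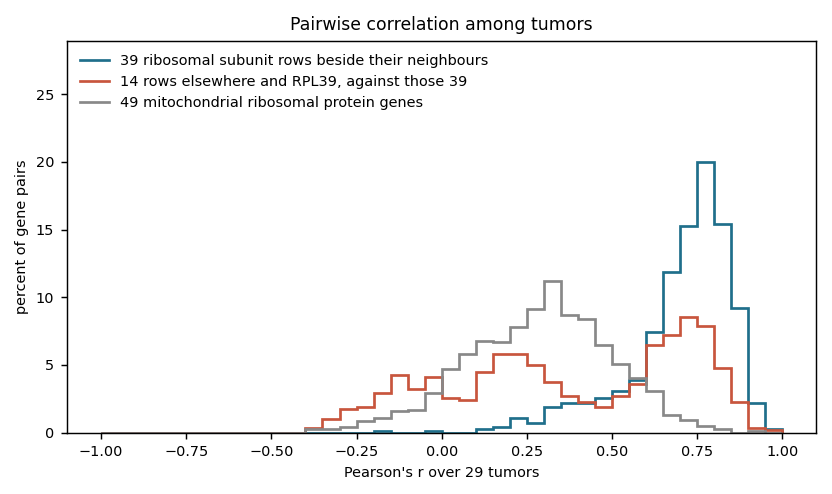
Distribution of Pearson's r over 29 tumors for pairs within the 39 subunit rows with their own neighbours, for the 14 rows elsewhere and RPL39 against those 39, and for pairs within 49 mitochondrial ribosomal protein genes, in percent of pairs. The first has its median at 0.74, the second spreads over 2 humps with a median of 0.36, and the third has its median at 0.30.

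Rows of the same symbol and the one measured pair of relatives were followed over the tumors. The 2 rows of RPL23 were nearly identical in pattern, with a Pearson's r of 0.993 and a Spearman's rho of 0.989, and those of RPL11 (r = 0.924, rho = 0.910) and RPL26 (r = 0.887, rho = 0.850) were close to it. Each of these had a two-sided permutation p of 1e-05, the smallest that 100000 resamples can give, and 1.33e-05 after Benjamini-Hochberg adjustment over 4 pairs. RPS27 and its paralog RPS27L had r = 0.676 (permutation p = 0.00011, adjusted 0.00011) and rho = 0.621 (permutation p = 0.00052, adjusted 0.00052). These p-values are against no correlation at all. The median of all pairs of members was 0.65, but RPS27L is a row elsewhere. For the rows elsewhere and RPL39 against the 39 subunit rows the median was 0.36. With the mean of the other members, RPS27L had an r of 0.43. When the 2 tumors most extreme in the first row were dropped, r was 0.989, 0.902, 0.853 and 0.616 in the order RPL23, RPL11, RPL26 and RPS27 with RPS27L. The 3 pairs of the same symbol were added after the values were seen, and reads of near-identical rows cannot be told apart.

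Once the shared level of a tumor was taken away, what remained of many ribosomal protein genes varied with the genes beside them. Each of the 39 rows was taken relative to the median of the 39 in the same tumor, and set against the mean of up to 10 neighbouring rows that are not ribosomal protein genes. Over the 29 tumors r was positive for 37 of the 39 rows, with a median of 0.44, and was over 0.5 for 15. Against the neighbours of the other rows the median was -0.03 over 1476 combinations, of which 0.745% were over 0.5. For 9936 other genes, with no shared level taken away, the median r with their own neighbours was 0.28 and 20.3% were over 0.5. When the 2 tumors with the most extreme neighbours were dropped for each row, the median r over the 39 rows was 0.31, 36 were positive and 8 in place of 15 were over 0.5. RPL7A (0.07), RPS15A (-0.03) and RPL26 (-0.07) showed next to no such relation. This comparison was added after the values were seen and is a description.

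The closest to their neighbours were RPS27 (r = 0.85, and 0.78 without the 2 farthest tumors), RPL11 (0.78 and 0.71) and RPL8 (0.77 and 0.68). RPS27, a small subunit protein with a zinc finger, was 0.91 above the shared level in tumor Mi, where its neighbours averaged 0.73. RPL11 was at -0.99 relative to the shared level in tumor Ja, the tumor with the highest level of the family, and its neighbours there averaged -0.59. Large departures, named after their values were seen, were those of tumor 11: RPS14, whose loss is known from the 5q- syndrome in people, was 2.96 above the shared level there and RPL19 was 1.99 above it, with neighbours at 1.33 and 1.39, while RPL17 was at -1.93 relative to it with neighbours at 0.18. RPL23, which lies close to RPL19 and shares neighbours with it, was 1.01 above the shared level in the same tumor. RPL17 was also far below the shared level in tumors 8_734_223 (-2.09) and 5 (-1.94), where its neighbours averaged -0.44 and -0.07, and over the 29 tumors its r with its neighbours was 0.27.

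**Figure D5:**
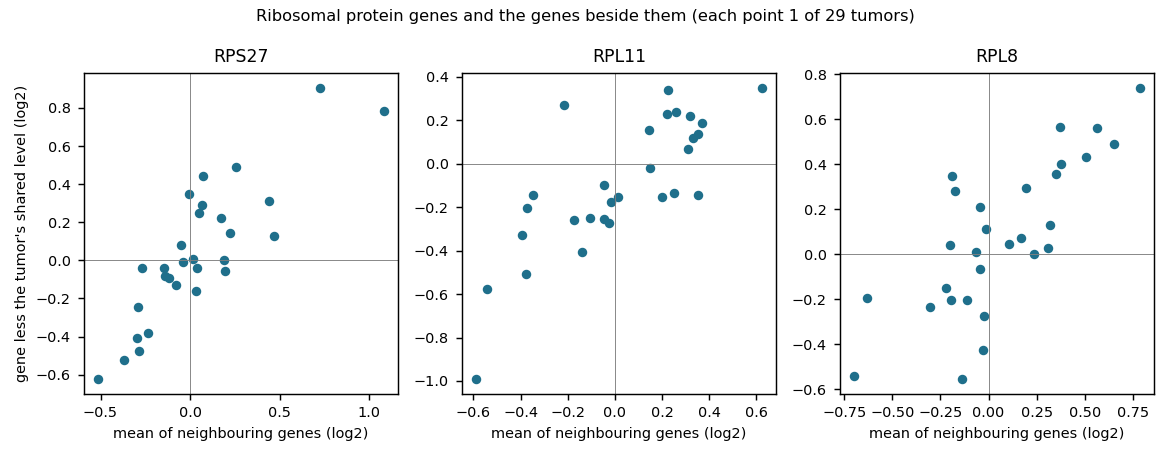
RPS27, RPL11 and RPL8 in each of 29 tumors, as the log2 value less the tumor's median over 39 ribosomal subunit rows, against the mean log2 value of the neighbouring rows. The points climb from lower left to upper right in each panel, with r of 0.85, 0.78 and 0.77.

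Genes that work with the ribosome were examined from lists. RACK1, a scaffold on the small subunit, lies outside the naming rule and did not pass the test (0.01 ± 0.28, adjusted p = 0.969). Over the tumors it followed the mean of the 39 rows, with an r of 0.83. Of 19 translation factors 1 was higher and none lower at both thresholds, beside 10.7% and 45.8% of all genes (median log2 fold change 0.38, and 0.08 in the DESeq-normalized table), and 16 had an r over 0.5 with that mean, where 3.44% of all genes did. EEF1A1, which brings transfer RNA to the ribosome, had an r of 0.79 and a log2 fold change of -0.15 ± 0.28 (adjusted p = 0.635). The 1 called was PABPC1, the poly(A)-binding protein, higher by 1.58 ± 0.32 (adjusted p = 5.49e-05) with an r of 0.19.

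Ribosome biogenesis factors, which assemble the subunits in the nucleolus, were higher in tumors for 11 of 37 genes. None was lower at both thresholds, beside the 10.7% higher and 45.8% lower among all genes, and the 37 had a median log2 fold change of 0.82 (0.52 in the DESeq-normalized table). The largest rises were in BOP1 (1.78 ± 0.27, adjusted p = 5.52e-07), UTP20 (1.54 ± 0.24, adjusted p = 8.29e-07) and PES1 (1.38 ± 0.26, adjusted p = 2.44e-05); BOP1 and PES1 encode partners in large subunit assembly. Of 15 genes for RNA polymerase I and its factors, which transcribe ribosomal RNA, 3 were higher and none lower, beside the same shares: POLR2K, a subunit shared by the polymerases (1.91 ± 0.28, adjusted p = 2.98e-07), TCOF1 (1.63 ± 0.34, adjusted p = 8.72e-05) and POLR1B (1.24 ± 0.22, adjusted p = 7.01e-06), of which POLR1B was under 2-fold in the DESeq-normalized table (0.94). Of 50 mitochondrial ribosomal protein genes 6 were higher at both thresholds, a share near the 10.7% of all genes, led by MRPL13 (1.58), MRPL41 (1.15) and MRPS21 (1.11). At the adjusted p alone 32 of the 50 were higher and 1 lower. The same shares were 22.9% and 48.1% of all genes, and 30.4% and 32.6% of the expressed genes. The list had a median of 0.61. MRPL24 was at its lowest value in all 29 tumors and entered the test through the normals alone, so its call as lower, the 1 of the list, is not counted as a result; MRPL41 and MRPS21 were under 2-fold in the DESeq-normalized table (0.85 and 0.81). Of 30 proteasome genes 6 were higher, where 10.7% of all genes were, led by PSMD11 (1.37), PSMB8 (1.29) and PSMB2 (1.14), and 3 were lower, namely PSMA8 (-4.30), PSMB3 (-1.90) and PSMB11 (-1.26), with a median of the list of 0.81. In the DESeq-normalized table PSMB8 (0.996) and PSMB2 (0.84) were under 2-fold. At the adjusted p alone, 26 of the 30 proteasome genes were higher and 3 lower. By that rule 31 of the 37 biogenesis genes were higher and 1 lower, and 11 of the 15 polymerase I genes were higher and none lower.

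Of 17 growth regulators of the MYC, p53 and mTOR pathways, 6 were higher and none lower at both thresholds, beside 10.7% and 45.8% of all genes, led by RICTOR (1.69 ± 0.29, adjusted p = 4.02e-06), MDM2 (1.53 ± 0.33, adjusted p = 0.000113) and MAX (1.44 ± 0.22, adjusted p = 7.46e-07). At the adjusted p alone 14 of the 17 were higher and none lower, beside 22.9% and 48.1% of all genes. MYC, a transcription factor that drives ribosomal protein genes, did not pass the test (0.42 ± 0.37, adjusted p = 0.31). Over the tumors MYC had an r of 0.48 and a rho of 0.56 with the median of the 39 rows, and the mean of 8 cell cycle genes, all higher in tumors, had 0.44 and 0.45. Fibroblast markers had -0.41 and -0.44, smooth muscle markers -0.27 and -0.43, endothelial markers -0.41 and -0.37, T cell markers -0.26 and -0.30, B and plasma cell markers -0.17 and -0.27, myeloid markers -0.13 and -0.14, and urothelial markers 0.00 and 0.06. Without the 2 tumors most extreme in each measure, r was -0.30 for fibroblast, -0.44 for smooth muscle and -0.23 for endothelial markers. It was then 0.45 for MYC and 0.38 for the cell cycle genes. The count of genes at their lowest value had 0.23 and 0.06. Tumor Po, with the lowest ribosomal protein level, had the highest mean of fibroblast markers, 2.27 in a range over tumors from -2.41, and tumor 18 had the lowest mean of endothelial markers, -2.19, and the highest mean of cell cycle genes, 1.31. Tumor Ja, with the highest ribosomal protein level, was not at these extremes: its means were 0.40 for endothelial markers, 0.38 for smooth muscle markers, -0.39 for fibroblast markers and 0.08 for cell cycle genes. Tumor Po also had 86.5% of the olfactory receptor rows above their lowest value, near the upper end of the tumors. Tumor 5, the highest at 91.7%, had a ribosomal protein median of 0.20. Over the 29 tumors that percentage had an r of -0.11 and a rho of -0.06 with the median of the 39 rows. The part of cell content in the ribosomal protein level was not tested.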

How the data were processed

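RNA of 29 canine iUC and 4 normal mucosa samples was depleted of ribosomal RNA and sequenced as paired reads in 1 batch. Per the labels and the study's methods, reads were aligned to CanFam3.1 with COBWeb in Strand NGS and annotated genes were quantified. The authors deposited log2 values, normalized by TMM (25096 rows) or DESeq (25139 rows); each gene is centred on its median over 33 samples, as read from the values. How reads of near-identical genes were counted is not given in the sources used here. The values are not counts, so the depth of each sample is unknown. The last line of each analysed copy is incomplete and was not used.

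Tumors and normals were compared on the values as deposited with limma 3.58.1 in R 4.3.3 (mean-variance trend, Benjamini-Hochberg adjustment) over 24471 genes above their shared lowest value in at least 4 samples. The design had foreseen linear values with a pseudocount of 1, which log2 values do not need. Called genes passed an adjusted p of 0.05 and a 2-fold change. Correlations used Python 3.11.15, numpy 2.4.6 and scipy 1.17.1. Both were tested on simulated data. Neighbours were the 5 nearest rows on each side with a RefSeq gene (assembly UU_Cfam_GSD_1.0, used for gene order only); a row lay with its neighbours when at least 5 of them stood within 25 genes of the gene named. Named genes are the 5 largest rises and falls among called rows, the 5 with the largest SD over tumors, the 5 highest and lowest r with the other members, and a list of members and relatives. Members and lists were chosen with earlier results of these data known. Some of these genes are not reported here; they remain in the counts and medians over all rows.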

Additional observations from a re-analysis of the deposited data

Results flagged for a closer look

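In each of the 56 rows the 4 normals were examined for 1 sample far from the other 3 (Dixon's test, critical value 0.829), which chance alone flags in about 1 of 20 groups; the tumors are too many for it. It flagged 2 rows, both in normal A. RPS15 was at -0.82 in normal A, with the nearest normal at -0.63. RPS23, a small subunit protein of the decoding center, was at -0.28 in normal A, with the nearest normal at 0.10.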

How the results depend on the processing

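The count of lower rows was 6 in the TMM-normalized table and 7, with RPS3A added, in the DESeq-normalized table. It was 5 to 6 with 1 normal left out, but 2 without paralogs, RPS19BP1 and rows at the lowest value in over 4 samples, and 0 among rows with their own neighbours. The count of higher rows, 1, was 0 in the DESeq-normalized table and 0 without those same rows, 9 with no fold-change threshold, and 0 to 2 with 1 normal left out (0 without normal D; 2 without normal C, where RPL8 reached 1.04). The median log2 fold change moved from 0.26 to -0.043 in the DESeq-normalized table and lay between 0.23 and 0.32 with 1 normal left out. Without the 2 tumors farthest from the median, the median pairwise r moved from 0.65 to 0.50 and the SD of the tumor medians from 0.41 to 0.30. The signs of RPL26 (-0.16), RPL11 (-0.24) and RPS6 (-0.12), on rows with their own neighbours, reversed in the DESeq-normalized table, which shifted the expressed genes by -0.30, and were positive (0.094, 0.0073 and 0.13) once that table was centred on the expressed genes. That of RPL11 also reversed without normal A (-0.025), and its values with 1 normal left out ran from -0.025 to 0.13. The restriction to rows with their own neighbours and the centred DESeq-normalized table were chosen after seeing the data. No paired analysis was possible because the normals came from dogs without bladder disease and each tumor from a different dog. With 4 normals and no depth known per sample, changes under about 2-fold were often within the spread, and rows at the lowest value give no size for a fall.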
